A study of Mus musculus with 5 samples.

Results

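The Schlafen family is a group of mouse genes that sit side by side on chromosome 11. Members were taken as the genes of the family that had a probe set with a single gene symbol starting with Slfn, which gave Slfn1, Slfn2, Slfn3, Slfn4, Slfn5, Slfn8, Slfn9 and Slfn10-ps, 8 of 17756 symbols in the table. Each of them had a single probe set, so the rule's choice of the row with the highest mean signal over the 5 arrays was not needed. The same letters also begin Slfnl1, a Schlafen-like gene on another chromosome, whose values are given beside the 8 members and counted with none of them. The members were selected on their symbols, and the family itself was chosen by the IFNa minus vehicle signal difference of Slfn3, which was already known. The differences and p-values of the members are therefore given as descriptions.

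The arrays held RNA of VE+CD45+ cells, that is cells with the endothelial protein VE-cadherin and the leukocyte protein CD45, sorted out of the aorta-gonad-mesonephros (AGM) of C57Bl/6 embryos at E11.5. This region is where definitive blood stem cells first arise, and the labels call the cells hematopoietic stem cells. After sorting, the cells were cultured with serum and given interferon-alpha (IFNa) at 0.5 ng/ml for 4 hours (n = 3, replicates 1, 2 and 3) or vehicle for the same time (n = 2, replicates 2 and 3). All RNA was amplified before labelling. The labels call the replicates biological without naming the embryos or litters, so p-values measure the spread between these samples. The label field on treatment reads IFNa for all 5 samples, and the groups follow the titles and the characteristics, which name the vehicle. The sort markers were measured on every array. Cdh5, which encodes VE-cadherin, read 6.23 to 8.55 on the IFNa arrays and 6.93 to 9.20 on the vehicle arrays on the log2 scale. Ptprc, which encodes CD45, read 5.35 to 7.03 and 7.23 to 8.95, so the vehicle arrays were above all IFNa arrays. Over the 5 arrays, 14 macrophage markers had mean log2 signals of 10.95 to 11.46, and 8 stem and progenitor markers of 6.24 to 7.54. Probe sets differ in brightness, and the share of each cell type was not tested.

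Schlafen proteins share an N-terminal core with a folded domain that in several members cuts tRNA, and the long members carry a helicase-like C-terminal part in addition. Slfn1 and Slfn2 are short, Slfn3 and Slfn4 intermediate, and Slfn5, Slfn8 and Slfn9 long, while Slfn10-ps is annotated as a pseudogene. The family is known for growth restraint and quiescence in lymphocytes and for expression in myeloid cells, and several members are induced by type I interferon in immune cells. Interferon-alpha acts through the receptor chains Ifnar1 and Ifnar2 and the ISGF3 complex, which includes Stat2 and Irf9 and binds interferon-stimulated response elements in promoters.

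Since the question is a response to interferon, the promoter letters are shown before the values. RefSeq promoter windows (GRCm38.p6, 250 bases before and 50 after each annotated start) were matched by symbol for 7 of the 8 members. The core of the interferon-stimulated response element was searched on both strands as GAAA, any 2 bases, and GAAA again. It occurred in the windows of Slfn5, Slfn8 and Slfn9, which are all long members, and in 3.44% of all 32851 windows of that length. Counted by gene, 3.99% of 27025 genes had it in a window, against 9 of the 21 type I interferon response genes that had both a measured probe set and a window (42.9%). The 60 bases around each match in the Schlafen windows are printed with the match in capitals, since these are the members with the letters that ISGF3 is known to read.
Slfn5, chr11:82951922-82951981, plus strand: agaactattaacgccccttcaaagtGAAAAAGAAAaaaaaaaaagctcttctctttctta
Slfn8, chr11:83020824-83020883, minus strand: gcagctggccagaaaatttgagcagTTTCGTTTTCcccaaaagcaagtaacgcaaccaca
Slfn9, chr11:82991841-82991900, minus strand: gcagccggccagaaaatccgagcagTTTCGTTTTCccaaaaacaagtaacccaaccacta
The matches of Slfn8 and Slfn9 read the same letters on the strand of the gene and lay at -48 to -39 and -45 to -36 relative to the annotated start, where 0 is the first transcribed base. That of Slfn5 lay at -155 to -146, in a run of A. Slfn8 has another annotated start, from which its match lay at -136 to -127. The core of the gamma-activated sequence, searched as TTCNNNGAA on both strands, occurred in the windows of 0 of the 7 members and in 8.3% of all windows. None of these matches shows binding.

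The short and intermediate members had another stretch in common. The letters ACTTCCTGG, which hold the GGAA core of ETS-type sites on the other strand and were chosen after these windows were read, occurred in the windows of Slfn1, Slfn2, Slfn3 and Slfn4 and in 0.843% of all windows (both strands; no overlap with the matches of the other motifs). The match lay between -74 and -34 in each of the 4 genes and always on the strand of the gene. Only these exact letters were searched, plotted and put in capitals. Other GGAA letters on either strand, as in the Slfn3 and Slfn4 stretches, stay in lower case. The stretches are printed for 3 of them with the match in capitals, and for Slfn3, whose signal differed most between the groups, all 250 bases before the start are printed, in which the searched response element core did not occur.
Slfn1, chr11:83116721-83116779, plus strand: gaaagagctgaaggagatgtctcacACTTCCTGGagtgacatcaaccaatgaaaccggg
Slfn2, chr11:83065032-83065090, plus strand: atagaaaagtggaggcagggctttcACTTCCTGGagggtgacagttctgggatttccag
Slfn4, chr11:83175088-83175146, plus strand: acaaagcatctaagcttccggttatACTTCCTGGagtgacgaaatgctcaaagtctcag
Slfn3, chr11:83191080-83191329, plus strand: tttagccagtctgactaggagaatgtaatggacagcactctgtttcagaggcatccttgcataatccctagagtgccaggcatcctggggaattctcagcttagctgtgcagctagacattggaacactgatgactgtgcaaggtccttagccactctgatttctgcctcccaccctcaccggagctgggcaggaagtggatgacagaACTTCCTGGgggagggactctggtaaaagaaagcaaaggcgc
Aligned end to end over the 250 bases before the start, Slfn8 and Slfn9 were 80.2% identical. The other 20 pairs of members ran from 45.5% to 53.4%, and the median of all 21 pairs was 49.7%. Windows of unrelated genes were not aligned, so a shared origin is not read from the values of these 20 pairs. The plot of motif matches sets the windows side by side.

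**Figure D1:**
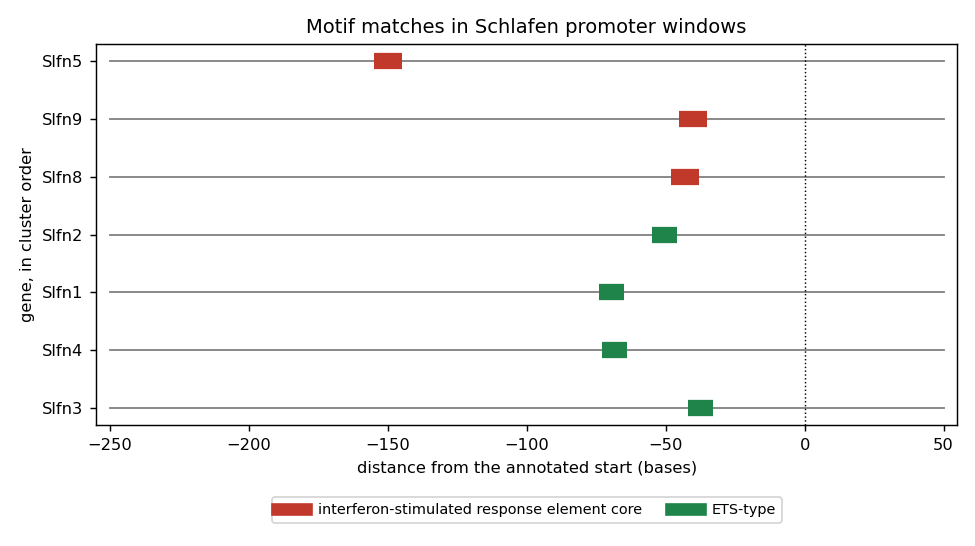
Positions of motif matches in the promoter windows of 7 Schlafen genes, in cluster order, by distance from the annotated start in bases (0 is the first transcribed base; the first listed start of each gene). Response element cores lie in the windows of Slfn5, Slfn9 and Slfn8, and ETS-type letters in those of Slfn2, Slfn1, Slfn4 and Slfn3.

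Among the members, Slfn3 had a far higher signal in the IFNa-treated cells, Slfn10-ps a moderately higher one, and the other 6 were near equal or somewhat lower. Differences are IFNa minus vehicle on the log2 scale of the deposited RMA signals, where 1 is a doubling, with moderated standard errors (SE) from limma. No member passed an adjusted p under 0.05 in limma (0 of 8, against 0.135% of all genes). At an unadjusted p under 0.05 in limma stood 2 of 8, Slfn3 and Slfn10-ps (10.0% of all genes). For 3 of 8 members IFNa and vehicle values were fully separated, against 25.6% of all genes. These were Slfn3 and Slfn10-ps, higher with IFNa, and Slfn4, lower with IFNa. With 8 genes, of which Slfn3 was known beforehand to differ, nothing is read from these shares. Of the members, 3 differed above 0 and 5 below, and the median difference was -0.0075, against -0.04 over all genes. Probe sets differ in how brightly they read a transcript, so an order of the members by signal is not an order by transcript amount. In bulk cells, fewer cells of a type and less RNA per cell cannot be told apart.

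**Figure D2:**
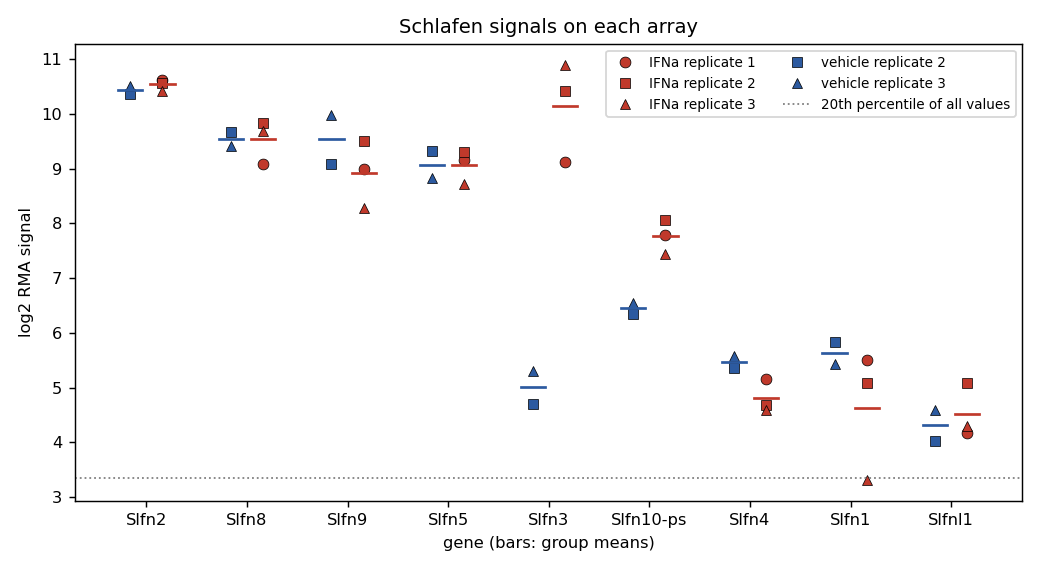
Log2 RMA signal of the 8 Schlafen genes and of Slfnl1 on each of the 5 arrays, with bars for the group means. The 3 IFNa arrays of Slfn3 lie between 9.12 and 10.90 and the vehicle arrays at 4.70 and 5.31, whereas the groups of Slfn2, Slfn8, Slfn9, Slfn5, Slfn1 and Slfnl1 overlap.

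Slfn3 is an intermediate member known from T cells and from the differentiation of gut epithelium. Its signal was 9.12, 10.42 and 10.90 on IFNa replicates 1, 2 and 3, and 4.70 and 5.31 on vehicle replicates 2 and 3. All IFNa arrays were high, both vehicle arrays were low, and the smallest gap between an IFNa and a vehicle array was 3.81. Among the genes of each array, Slfn3 stood at percentiles 85.0, 92.9 and 95.1 with IFNa and 41.4 and 49.1 with vehicle, so with vehicle its probe set was near the middle of all genes. The means were 10.14 ± 0.92 (SD, n = 3) and 5.005 ± 0.43 (SD, n = 2). The difference was 5.14 ± 0.67 (SE), a 35.3-fold difference in signal, with a 95% interval of 3.55 to 6.73 and an adjusted p of 0.0714 in limma. It was larger than the spread within either group and missed the threshold over all genes.

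The family was chosen by that difference, so its rank among all genes is a description and no support. The size of the Slfn3 difference was rare in the table. Only 1 gene had a larger difference upward and 2 had a downward difference of more than that size. The vehicle arrays differed from each other by as much in 6 genes, and the IFNa arrays spanned as much in 4. By the standard deviation over all 5 arrays, 6 genes including Slfn3 varied as much as it did (0.0338% of genes). The difference did not rest on a single array, since the 5 refits with an array left out gave 4.76 to 5.65. The lowest adjusted p of these in limma was 0.0824 (without vehicle replicate 3) and the highest was 0.199 (without IFNa replicate 3). The probe set of Slfn3 has the plain suffix that the array maker gives to sets designed for a single gene. Its probe letters were not used here, so a signal from Slfn4 or another near copy was not tested.

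**Figure D3:**
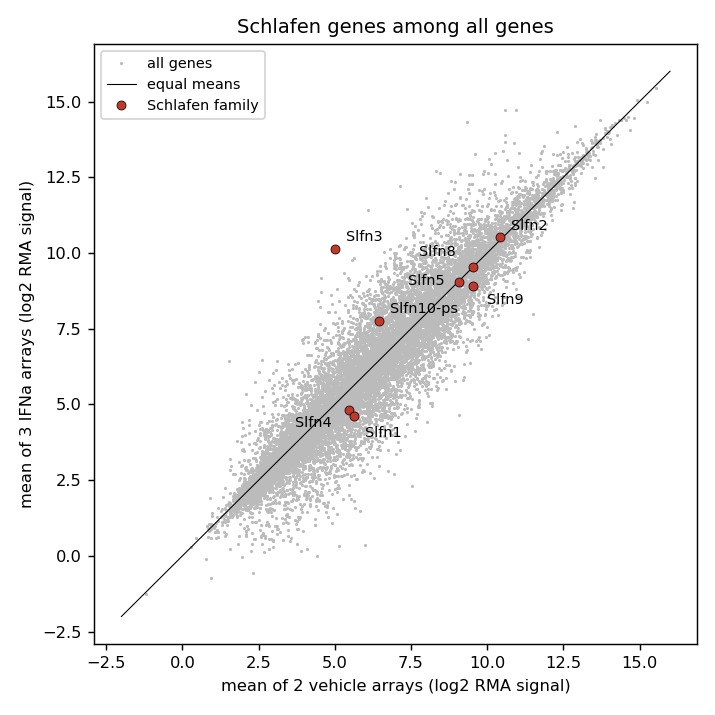
Mean log2 RMA signal of the 3 IFNa arrays against that of the 2 vehicle arrays for 17756 genes (grey), with the Schlafen family in red and the line of equal means. Slfn3 lies far above the line at 5.005 and 10.14, at the edge of the cloud of genes.

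Markers of granulocyte and monocyte progenitors, cells that the CD45 sort could hold, are given beside Slfn3. None of the 9 measured markers passed the threshold in limma (2 at an unadjusted p under 0.05), 7 differed above 0 and 2 below, and their median was 0.37. Their mean log2 signal was 7.71, 8.34 and 7.34 on IFNa replicates 1, 2 and 3 and 7.11 and 7.17 on vehicle replicates 2 and 3. That separation rested on S100a8, a neutrophil calcium-binding protein gene named after its values were seen, which read 12.30, 14.59 and 10.85 with IFNa and 11.16 and 7.87 with vehicle. Without S100a8, an alternative chosen after seeing the data, the mean of the other 8 was 7.14, 7.56 and 6.90 with IFNa and 6.60 and 7.08 with vehicle, and the groups overlapped. Prtn3, a granule protease with the smallest p of the list, differed by 1.15 ± 0.47 (adjusted p = 0.484, limma), and S100a9, the brightest of the list, by 0.99 ± 0.74. The protease gene Ctsg, also named after its values were seen, was lower on every IFNa array at -0.39 ± 0.24. None of the 9 was below the 20th percentile of all values (3.35) in its mean. Ctsg lay near it, at 3.23, 3.30 and 3.41 with IFNa and 3.67 and 3.74 with vehicle, where sizes are uncertain. The part of these cells in the Slfn3 signal was not tested. Lymphoid markers, which bear on Slfn3 as a T cell gene, gave means of 4.56 to 4.94 with IFNa and 4.78 to 5.13 with vehicle over 10 measured genes, with 0 called in limma (0 at an unadjusted p under 0.05) and 2 below the 20th percentile. The list pools T and B cell genes, and 2 differed above 0 and 8 below. Cd79b, a B cell receptor component with the highest signal and the smallest p of that list, differed by -0.75 ± 0.53. The 2 above 0 were the T cell genes Cd3d (0.36 ± 0.32, higher on every IFNa array) and Cd3g (0.18 ± 0.34), named after their values were seen.

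Slfn4, the other intermediate member and the direct neighbour of Slfn3, is known from myeloid cells and macrophages. It read 5.16, 4.68 and 4.59 on IFNa replicates 1, 2 and 3 and 5.36 and 5.58 on vehicle replicates 2 and 3. All IFNa arrays were below both vehicle arrays, by 0.20 at the nearest. The difference was -0.66 ± 0.36 with an interval of -1.52 to 0.20 and an adjusted p of 0.629 in limma. Slfn3 and Slfn4 thus lay on opposite sides of 0, and the interval of Slfn4 excluded a rise of 1.

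Of the short members, Slfn2 was the steadiest gene of the family. It is known for keeping T cells and monocytes quiescent. It read 10.62, 10.56 and 10.42 on IFNa replicates 1, 2 and 3 and 10.36 and 10.51 on vehicle replicates 2 and 3, and the groups overlapped. Its SD over all 5 arrays was 0.11, and 1.42% of genes varied as little or less. The difference of 0.10 ± 0.34 had an interval of -0.72 to 0.92, the only one of the 8 that excluded both a rise and a fall of 1 on the log2 scale. The SE draws on the spread of other genes at that level and is wider than the arrays of Slfn2 alone.

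Slfn1, the founding member, whose overexpression restrains thymocyte growth, read 5.51, 5.08 and 3.31 on IFNa replicates 1, 2 and 3 and 5.84 and 5.44 on vehicle replicates 2 and 3. IFNa replicate 3 was low, under the 20th percentile of all values, and replicate 1 lay between the vehicle arrays, so the groups overlapped. The difference was -1.005 ± 0.67 (adjusted p = 0.712, limma), and -0.34 without IFNa replicate 3. On that replicate the 14 macrophage markers had a mean of 10.95, their lowest, against 11.34 to 11.46 on the other 4 arrays. The markers did not move together there (those named here were picked after their values were seen). Timd4 (5.05) and Cx3cr1 (8.01) were at their lowest of the 5 arrays, and Adgre1 (10.79) and C1qa (10.93) at their highest. Macrophages are a cell type in which Slfn1 is known to be regulated, and their part was not tested.

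The long members read between percentiles 80.2 and 92.5 of the genes of each array. Slfn5, whose human counterpart is induced by interferon, read 9.16, 9.30 and 8.72 on IFNa replicates 1, 2 and 3 and 9.32 and 8.83 on vehicle replicates 2 and 3. Its groups overlapped, with a difference of -0.01 ± 0.47 and an interval of -1.13 to 1.11. Slfn8 read 9.09, 9.84 and 9.69 with IFNa and 9.67 and 9.41 with vehicle, again with overlap. Its difference was -0.0020 ± 0.45 with an interval of -1.08 to 1.08. Slfn9, its near copy in promoter letters, read 8.99, 9.50 and 8.28 with IFNa and 9.08 and 9.98 with vehicle. The widest values were IFNa replicate 3 at the low end and vehicle replicate 3 at the high end, and the difference was -0.61 ± 0.57 (adjusted p = 0.818, limma). Without vehicle replicate 2 it was -1.06, and it shrank to -0.16 when vehicle replicate 3 was left out. The 3 members with a response element core in their windows differed by -0.61 to -0.0020. Of the members with a window but without that core, Slfn3 differed by 5.14, Slfn2 by 0.10, Slfn4 by -0.66 and Slfn1 by -1.005. Slfn10-ps had no window, and a part of the core in these differences was not tested. The intervals of Slfn5 and Slfn8 reach just past 1 in both directions, so a doubling was not excluded for them.

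Slfn10-ps lies between Slfn8 and Slfn2 in the cluster. It read 7.79, 8.07 and 7.44 on IFNa replicates 1, 2 and 3 and 6.35 and 6.55 on vehicle replicates 2 and 3. All IFNa arrays were above both vehicle arrays, by 0.89 at the nearest. The means were 7.77 ± 0.32 (SD, n = 3) and 6.45 ± 0.14 (SD, n = 2), and the difference was 1.32 ± 0.48, a 2.50-fold difference in signal with an interval of 0.17 to 2.47. Its adjusted p was 0.435 in limma, and it ranked 1111 among all genes by difference, counted from the highest. Slfnl1, outside the cluster, read 4.17, 5.09 and 4.31 with IFNa and 4.03 and 4.60 with vehicle, a difference of 0.21 ± 0.40 with overlap between the groups.

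**Figure D4:**
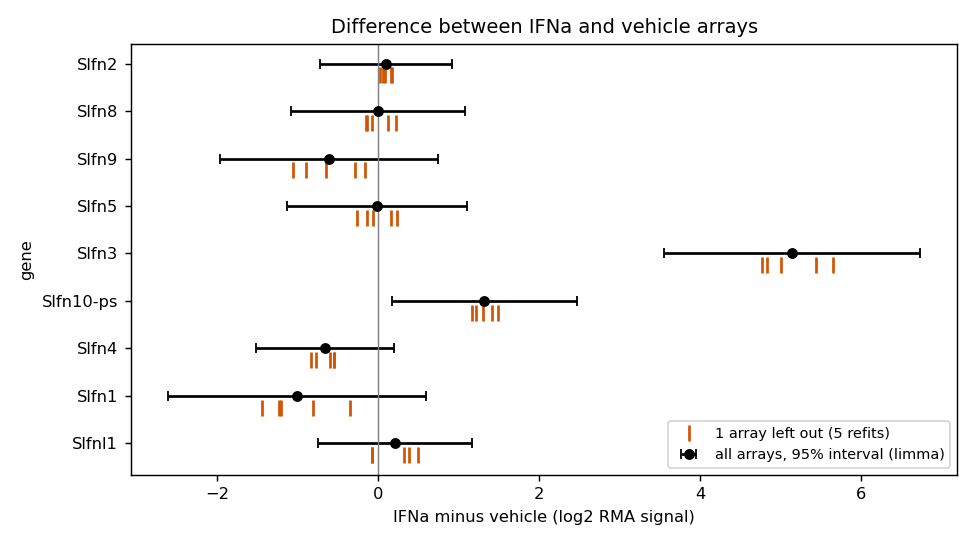
IFNa minus vehicle difference in log2 RMA signal for the 8 Schlafen genes and Slfnl1 (points, with 95% intervals from limma) and the 5 values with 1 array left out (orange ticks). Slfn3 stays between 4.76 and 5.65 and Slfn10-ps between 1.17 and 1.48, while Slfn8, Slfn5 and Slfnl1 have values on both sides of 0.

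Along the chromosome the members run from Slfn5 through Slfn9, Slfn8, Slfn10-ps, Slfn2, Slfn1 and Slfn4 to Slfn3, in the RefSeq gene table of GRCm38.p6. The members with higher signals on all IFNa arrays, Slfn10-ps and Slfn3, are not adjacent, and Slfn2, Slfn1 and Slfn4 lie between them. Within 300 kb on either side, 15 of 39 other genes were measured. None of the 15 passed the threshold in limma, their differences ran from -2.55 to 0.53, and the median was -0.19. The nearest measured gene beyond Slfn3, the noncoding AI662270, read 6.05, 2.67 and 4.15 on IFNa replicates 1, 2 and 3 and 6.10 and 5.44 on vehicle replicates 2 and 3. Its difference was -1.48 ± 0.92, and the highest difference of a measured neighbour, that of the DNA repair gene Rad51d, was 0.53 ± 0.50. At the far end of that side, Taf15, an RNA-binding protein gene, had the lowest difference, -2.55 ± 0.42 (adjusted p = 0.129, limma), with signals under the 20th percentile on all IFNa arrays.

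By the distance between profiles over the 5 arrays, each taken minus its own mean, the genes most like Slfn3 were Fat4, Nt5dc1 and Ggnbp2. The root mean square distances were 0.43, 0.64 and 0.66 on the log2 scale, and Fat4 was the only gene within 0.5 of Slfn3. Fat4, an atypical cadherin, read 5.84, 6.13 and 7.33 with IFNa and 1.61 and 1.43 with vehicle. It passed the threshold (adjusted p = 0.0288, limma), and its vehicle values lay under the 20th percentile, where sizes are uncertain. Nt5dc1, a nucleotidase-domain gene, read 9.44, 9.55 and 10.32 with IFNa and 5.60 and 5.51 with vehicle. Ggnbp2 read 7.47, 8.37 and 9.44 with IFNa and 4.56 and 4.33 with vehicle. Slfn1, the only other member with an SD of at least 1 over the arrays (1.00), was most like Gusb, Man2c1os and Zfp207, at 0.08, 0.14 and 0.15. Its pattern was common, with 280 genes within 0.5. Gusb, a lysosomal enzyme gene, read 6.95 on IFNa replicate 3 and 8.81 to 9.54 on the other arrays.

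The genes through which interferon-alpha acts gave no called difference beside these members. Of 7 measured genes from the receptor to ISGF3, 0 passed in limma (0 at an unadjusted p under 0.05), with 0.07 as the median difference. Ifnar1 differed by 0.07 ± 0.57, Stat2 by 0.27 ± 0.57 and Irf9 by 0.54 ± 0.66. Ifnar2, the signalling chain of the receptor, had the highest signal and the smallest p of the list and differed by 0.64 ± 0.30, with all IFNa arrays above both vehicle arrays (adjusted p = 0.545, limma). Of 31 measured type I interferon response genes, 0 passed in limma (0 at an unadjusted p under 0.05), and their median was 0.05. Samhd1, a restriction factor and the brightest of them, differed by -0.04 ± 0.22. Adar, an RNA-editing enzyme with the smallest p, differed by 1.60 ± 1.04, with vehicle arrays at 4.62 and 0.62. The difference of Adar was the largest upward one of the list, against 5.14 for Slfn3.

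Genes listed beside the processes that Schlafen proteins are known for gave no called difference. Most lay below 0, and the median over all genes was below 0 too, at -0.04. Of 12 genes of lymphocyte quiescence and D cyclins, 0 passed in limma (0 at an unadjusted p under 0.05), 9 lay below 0, and the list median was -0.43. Since quiescence genes and D cyclins are pooled there, that count and median are not read as a measure of quiescence. Foxo3, a quiescence factor and the brightest of the list, was lower on every IFNa array at -0.67 ± 0.41, and Foxp1 had the smallest p at -0.80 ± 0.46. The other list pools genes of tRNA handling and ribonucleases with the stress kinase genes Eif2ak1, Eif2ak3 and Eif2ak4. Of its 8 genes, 0 passed in limma (2 at an unadjusted p under 0.05), 7 lay below 0, and the list median was -0.32. The kinase gene Eif2ak1, 1 of these 2, differed by -1.38 ± 0.57. Trdmt1, a tRNA methyltransferase, was lower on every IFNa array at -2.17 ± 0.75 (adjusted p = 0.412, limma). Rnh1, the inhibitor of angiogenin-type ribonucleases, differed by -0.37 ± 0.49. Macrophage markers, 14 in number, had a median of -0.03 with 0 called and 1 at an unadjusted p under 0.05 in limma, and 7 lay above 0 and 7 below. Csf1r, the brightest, read 14.26 to 14.69 over the 5 arrays. Timd4, a marker of resident macrophages with the smallest p, read 7.43, 5.29 and 5.05 on IFNa replicates 1, 2 and 3 and 7.54 and 9.38 on vehicle replicates 2 and 3, a difference of -2.54 ± 0.91 (adjusted p = 0.431, limma).

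Endothelial, stem and progenitor, erythroid and mesenchymal markers were called for 0 genes in limma too. Of 10 endothelial markers 2 stood at an unadjusted p under 0.05 in limma, and they went opposite ways. Tek, an angiopoietin receptor, had both the highest signal and the smallest p (2.15 ± 0.72). Vwf, named after its values were seen, was lower on every IFNa array (-0.88 ± 0.33). Of 8 stem and progenitor markers 1 stood at an unadjusted p under 0.05, the surface protein gene Cd34 (-2.61 ± 0.63), and the brightest, Runx1, differed by 0.43 ± 0.90. Of 7 erythroid markers 1 did, the transferrin receptor gene Tfrc (2.89 ± 0.38), also the brightest. Of 8 mesenchymal markers 2 did, with the smallest p in Tagln (-1.73 ± 0.50) and the highest signal in Col1a1 (1.38 ± 0.80). The medians of these 4 lists were -0.65, -0.24, -0.58 and 0.39 in that order. Below 0 lay 7 of 10, 5 of 8, 5 of 7 and 4 of 8 genes, in the same order. The part of these cell types in the Schlafen signals was not tested.

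**Figure D5:**
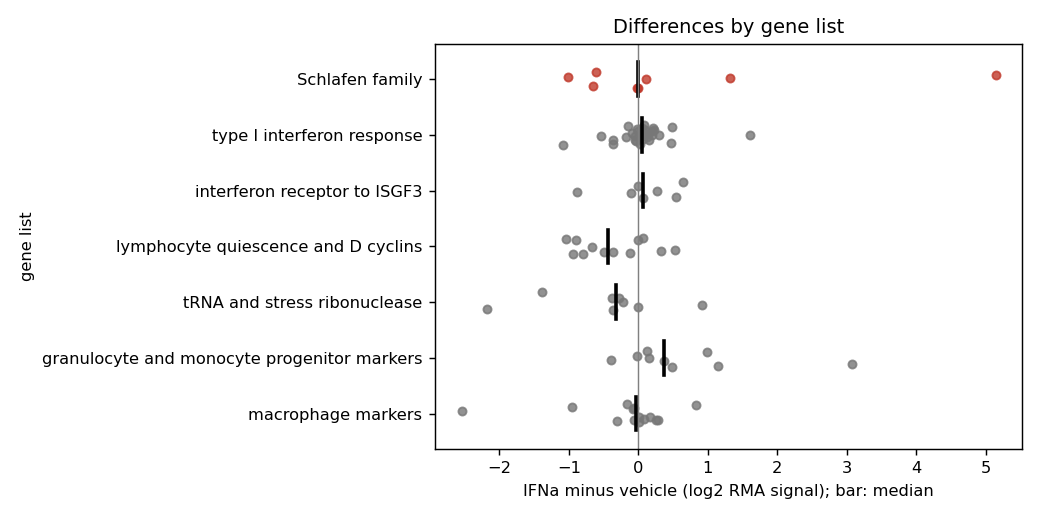
IFNa minus vehicle difference in log2 RMA signal for each measured gene of the Schlafen family and of 6 gene lists (points, spread vertically for legibility), with the median of each as a bar. The Schlafen median is -0.0075 with Slfn3 alone at 5.14, and the largest difference among the interferon response genes is 1.60.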

How the data were processed

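The deposited table holds log2 signals per probe set. Per the submitters' processing notes, the authors used RMA, which corrects background, normalizes between arrays and summarises probes; its version is not stated in the labels. The log2 signals reach from -1.95 to 15.6. RMA rarely gives negative values, so differences at the dim end have an uncertain size. Of 20881 rows, 17838 had 1 symbol in the platform annotation, and the brightest row per symbol was kept (17756 genes). Array medians over all rows were 4.98 to 5.15. IFNa (3 arrays) was compared with vehicle (2 arrays) with limma 3.58.1 in R 4.3.3 (eBayes with a trend), two-sided, Benjamini-Hochberg over all genes, threshold 0.05. The fit was tested on simulated data. The number of arrays limits the precision.

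The members and lists were chosen with earlier results of these data known. All members are named. Of each list the gene with the smallest p and that with the highest signal are named, plus Ifnar1, Ifnar2, Stat2 and Irf9 (another gene of this rule is not reported here); the 3 most similar profiles are named for members with an SD of at least 1. AI662270, Taf15 and Rad51d were picked out among the neighbours after their values were seen. Alignments used Biopython 1.88 (match 1, mismatch -1, gap opening -2). Alternatives were a floor at the 20th percentile, genes above the median, other variance settings, array weights, quantile normalization, median centring, the mean of all rows, a replicate block and each array left out.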

Additional observations from a re-analysis of the deposited data

How the results depend on the processing

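Of the 14 alternatives, those that kept both vehicle arrays called no member in limma (0 of 8, or 0 of the 6 tested among genes above the median level). At an unadjusted p under 0.05 in limma stood 1056 of the 8878 genes above the median level and 1463 of 15648 with the floor. The other settings with both vehicle arrays had 1355 to 1794 of 17756 genes there. Slfn3 kept its direction in all 14, between 4.76 and 5.65 (adjusted p between 0.0713 and 0.301, limma), and so did Slfn10-ps (1.17 to 1.48), Slfn9 (-1.06 to -0.16), Slfn4 (-0.83 to -0.55) and Slfn1 (-1.44 to -0.34); Slfn4, Slfn1 and Slfnl1 were not in the setting with genes above the median level. The 3 members with differences near 0 changed sign. Slfn2 was -0.17 with quantile normalization. Slfn8 was 0.021 with array weights, 0.081 with median centring, 0.22 with the replicate block and -0.15 to 0.22 with each array left out. Slfn5 was 0.059 with array weights, 0.070 with median centring and -0.26 to 0.23 with each array left out. With quantile normalization Slfn8 was -0.28 and Slfn5 -0.29, the lowest value of each over the alternatives. Slfnl1 was -0.075 to 0.50 with each array left out. Of all member values only that of Slfn1 on IFNa replicate 3 was under the 20th percentile, and with the floor Slfn1 differed by -0.99.

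Over all genes, 3 were called higher and 21 lower. The counts were 0 and 0 with the floor (1463 of 15648 genes at an unadjusted p under 0.05 in limma) and 1 and 0 among genes above the median level. They were 1 and 2 without a trend and 0 and 0 with the replicate block (1441 of 17756 genes at an unadjusted p under 0.05 in limma). Leaving out each array gave 0 to 37 higher and 0 to 144 lower. The cause was not tested. Replicate numbers 2 and 3 occur in both groups, but no label ties them, and over genes the deviations from the group means correlated at 0.0024 for number 2 and 0.043 for number 3. With the number as a replicate block, Slfn3 differed by 5.65 (adjusted p = 0.301, limma).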
